A study of Mus musculus with 2 samples.

Results

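The Cd9+ macrophages described here were 121 of the 2174 barcodes with at least 200 detected genes in single-cell RNA sequencing of the stromal vascular fraction of mouse epididymal white adipose tissue (eWAT). They were selected on measured values: at least 10 UMIs (unique molecular identifiers, 1 per captured transcript) of C1qa, C1qb and C1qc together, at least 1 UMI of Cd9, fewer than 10 UMIs of Dcn, a fibroblast gene, and fewer than 3 UMIs of the endothelial genes Cdh5 and Cldn5 together. C57BL/6 mice were fed a low-fat diet (LFD) or a high-fat diet (HFD) for 24 weeks from 6 weeks of age, and each diet is 1 library. The diets are those of the sample titles and treatment labels, while a protocol text shared by both samples names a low-fat diet for each. The study's methods give male C57BL/6J mice, and the number of mice behind a library was not given in the sources used here. With 1 library per diet there was no replicate and no test. All intervals are exact 95% intervals that cover counting error only, and cell counts, levels and ratios describe these 2 libraries. The LFD library held 4 of the Cd9+ macrophages and the HFD library 117. The comparison cells are gated macrophages without a Cd9 UMI, called Cd9- macrophages below, of which the LFD library held 226 and the HFD library 204. No barcode was shared by the 2 libraries.

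CD9 is a tetraspanin, a membrane protein with several spans that organises partner receptors and integrins in the plasma membrane. In obese fat, CD9+ macrophages sit around dying adipocytes in crown-like structures and have been described as rich in lipid. The study that made these data reported no lipid accumulation in its own CD9+ macrophages. CD9+ macrophages of obese fat carry the program called lipid-associated macrophages, in which the lipid-sensing receptor TREM2, the lysosomal glycoprotein GPNMB, fatty acid-binding proteins and lysosomal enzymes are prominent. Macrophages that reside in fat independently of obesity are marked by LYVE1, the mannose receptor MRC1, the haemoglobin receptor CD163 and the efferocytosis receptor TIMD4.

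Cd9+ macrophages made up 1.74% of the 230 gated LFD macrophages (0.476 to 4.39%) and 36.4% of the 321 gated HFD macrophages (31.2 to 42.0%). As shares of all barcodes with at least 200 genes they were 0.378% in LFD and 10.5% in HFD, where gated macrophages as a whole were 21.8% and 28.7%. Since Cd9 chose these cells, its level in them is no result. The number of Cd9 UMIs per cell ran from 1 to 2 in the 4 LFD cells and from 1 to 42 in the 117 HFD cells, with a median of 4. Of the HFD cells, 31 had 1 Cd9 UMI and 14 had 2, and so lay at or next to the limit. At the other limit, 3 of the 117 had 10 to 19 C1q UMIs, and 5 further HFD barcodes with a Cd9 UMI had 5 to 9 and were outside. The limits on fibroblast and endothelial genes removed 16 HFD barcodes with enough C1q, 14 of them with Cd9, and 8 LFD barcodes, 5 of them with Cd9.

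Depth differed between the classes. HFD Cd9+ macrophages had a median of 9057 UMIs (2461 to 75633) against 6461 in HFD Cd9- macrophages (854 to 22713), and 22 of the 117 cells exceeded 20000 UMIs and held 49.6% of the UMIs of the class. The LFD cells had a median of 7204 UMIs against 6320 in LFD Cd9- macrophages. When each gated cell was thinned to 2000 UMIs, Cd9 was still seen in 24.4% of 312 HFD macrophages (19.7 to 29.5%) and in 0.926% of 216 LFD macrophages (0.112 to 3.31%), after 9 HFD and 14 LFD shallower cells, none of them Cd9+, were left out. T cell barcodes (at least 3 UMIs of Cd3d, Cd3e and Cd3g, fewer than 10 of C1q), which should lack most of these genes, were taken as the background. Whether T cells express Cd9 themselves was not tested. Among T cells, Cd9 was seen in 9 of 64 LFD cells (14.1%, median depth 2848 UMIs) and 1 of 19 HFD cells (5.26%, median depth 2027 UMIs). After thinning, the T cell shares were 2 of 53 in LFD and 0 of 10 in HFD. The LFD share of 1.74% thus lay below the share in the shallower T cells of the same library and is not read as expression. The HFD share of 36.4% lay above that of the HFD T cells, which were few and shallower (1 of 19, interval 0.133 to 26.0%). At matched depth the 0 of 10 T cells allows a share of up to 30.0%, so shares alone could not tell the thinned 24.4% from background. Before thinning, no HFD T cell had more than 1 Cd9 UMI, and LFD T cells had up to 6. Of the 117 HFD Cd9+ macrophages, which were deeper, 55 had 5 or more.

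**Figure D1:**
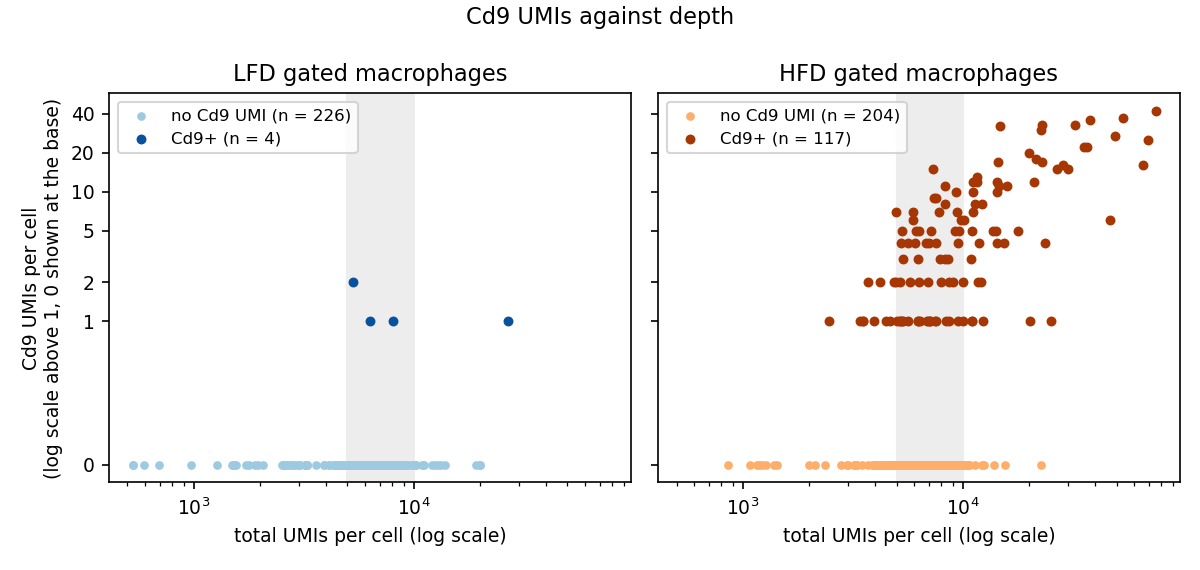
Cd9 UMIs per cell (vertical axis, log scale above 1) against total UMIs per cell (horizontal axis, log scale) for gated macrophages of the LFD library (left) and the HFD library (right), 1 point per cell; the grey band marks 5000 to 10000 UMIs. The 4 LFD Cd9+ cells have 1 or 2 Cd9 UMIs, and the HFD Cd9+ cells reach 42 Cd9 UMIs in the deepest cell.

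Because depth and Cd9 went together, HFD values are given below for all cells and again for cells of 5000 to 10000 UMIs, a window chosen after the data had been seen. The window held 54 Cd9+ macrophages (median 7040 UMIs) and 139 Cd9- macrophages (median 6810 UMIs) in HFD, and 3 Cd9+ cells in LFD. Levels are UMIs summed over the cells of a class and divided by all UMIs of the class, on the CPM scale. A gene counted as higher or lower when its CPM differed at least 2-fold and it had at least 50 UMIs over both classes. Over all genes, 5.65% of 5877 were higher and 6.65% lower in HFD Cd9+ macrophages. In the window these shares were 2.97 and 5.18% of 3571 genes. The counts within lists below stand beside these shares.

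The macrophage label held for the HFD Cd9+ cells. Csf1r, the receptor for the macrophage growth factor CSF1, was seen in 113 of 117 cells (96.6%) and Adgre1, which encodes F4/80, in 111 (94.9%). The 10 genes of macrophage identity summed to 16548 CPM in Cd9+ and 15685 CPM in Cd9- cells of HFD, and to 13841 and 13672 CPM in LFD. Of these genes, 0 were higher and 1 lower in HFD Cd9+ cells, among all 5877 genes of which 5.65% were higher and 6.65% lower, with a median log2 ratio over all genes of 0.01. The lower gene was Aif1, a cytoskeletal gene of macrophages, with 159 against 340 CPM. In the window it stood at 327 against 324 CPM, so the difference was present in the summed values of all cells and was not seen at matched depth.

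The rule itself limited Dcn, Cdh5 and Cldn5, which belong to the fibroblast and endothelial lists, so low values of these genes are no result. Most other lists of other lineages were low in the Cd9+ cells of HFD. The T and NK list (5 genes measured) summed to 18.3 CPM, the B cell list to 5.66 CPM with Cd79a and Ms4a1 at 0, the neutrophil list to 6.92 CPM with S100a9 at 0, the 4 endothelial genes outside the rule to 9.44 CPM, the mesothelial list to 0.629 CPM and the platelet list to 1.26 CPM. The adipocyte list stood at 67.3 CPM against 85.2 CPM in Cd9- cells. The fibroblast list, of 7 genes with Pdgfra at 0, was higher, at 352 against 170 CPM, with a range of 0 to 5264 CPM over Cd9+ cells and 0 to 940 CPM over Cd9- cells. Most of it was Gsn, the actin-severing gelsolin, at 333 against 144 CPM. Monocyte genes summed to 642 against 722 CPM, with Plac8, Chil3 and Cd177 at 0, and dendritic cell genes to 184 against 806 CPM, with Flt3, Xcr1, Clec9a, Itgae and Ccr7 at 0. One Cd9+ cell reached 1150 CPM for the T and NK list, and 0 of the 117 cells were called doublets by Scrublet. In LFD, the T and NK, B cell, neutrophil and mesothelial lists and the 4 endothelial genes all had 0 UMIs in the 4 Cd9+ cells. The part of fibroblast RNA in the results was not tested.

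Besides Cd9, the panel that names these cells holds Gpnmb, Trem2, Mmp12, a macrophage elastase, and Fabp5, a fatty acid-binding protein. Panel genes were measured in the cells that Cd9 selected, so their levels describe the class. Gpnmb (ENSMUSG00000029816, GRCm38 chromosome 6, 49036546 to 49070929) stood at 1747 CPM (1682 to 1813) in HFD Cd9+ macrophages and 26.2 CPM (18.2 to 36.4) in HFD Cd9- macrophages, a ratio of 66.8 (47.9 to 96.0). In LFD it had 0 UMIs in 4 Cd9+ cells and 0 UMIs in 226 Cd9- cells, which allows a share of cells with a UMI of up to 1.33% of the latter. The Gpnmb level in HFD was uneven: 55 of 117 Cd9+ cells had a UMI (47.0%), the highest cell had 508 UMIs, and that cell alone held 18.3% of the class total. In the window the ratio was 13.5 (7.96 to 24.1), with 234 against 17.4 CPM. One window cell (7415 UMIs, 39.7% of them mitochondrial, 10 C1q and 9 Cd9 UMIs) held 36 of the 90 Gpnmb UMIs there, and without it the ratio was 8.23 (4.70 to 15.2), with 143 CPM.

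Trem2 (ENSMUSG00000023992, chromosome 17, 48346401 to 48354147) stood at 1581 CPM in HFD Cd9+ and 348 CPM in HFD Cd9- macrophages, a ratio of 4.54 (4.11 to 5.02). It was the most widespread panel gene, with a UMI in 91.5% of Cd9+ and 66.2% of Cd9- cells of HFD. The LFD cells had 21.5 and 103 CPM in the same order. Trem2 in Cd9- macrophages was thus 3.39 times as high in HFD as in LFD, so its higher level with HFD was not limited to cells with a Cd9 UMI.

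Mmp12 (ENSMUSG00000049723, chromosome 9, 7344381 to 7369499) stood at 1393 CPM in HFD Cd9+ and 47.8 CPM in HFD Cd9- macrophages, a ratio of 29.1 (22.7 to 38.0). A single cell with 581 UMIs held 26.2% of the Mmp12 UMIs of the class, and 41.0% of Cd9+ cells had a UMI against 5.39% of Cd9- cells. Its ratio in the window was 34.4 (18.7 to 70.5), carried by 11 of 54 Cd9+ cells. The window cell with 36 Gpnmb UMIs described above, which is not the cell with 581, held 87 of the 149 Mmp12 UMIs in the window, and without it the ratio was 14.6 (7.63 to 30.8), with 164 CPM. In LFD, Mmp12 had 0 UMIs in Cd9+ cells and 1 UMI in Cd9- cells.

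Fabp5 (ENSMUSG00000027533, chromosome 3, 10012548 to 10016607) stood at 1867 CPM in HFD Cd9+ and 155 CPM in HFD Cd9- macrophages, a ratio of 12.1 (10.5 to 13.96), and at 691 against 133 CPM in the window. The LFD cells had 107 CPM (5 UMIs) and 25.0 CPM (36 UMIs). Fabp5 was also the panel gene seen in most T cells: 26.3% of HFD T cells and 20.3% of LFD T cells had a UMI, against 80.3% of HFD Cd9+ and 37.7% of HFD Cd9- macrophages. In LFD the T cell share was above the 10.2% of Cd9- macrophages. Whether T cells express Fabp5 themselves was not tested. For the other panel genes the T cell shares were 5.26% for Gpnmb (1 of 19 cells), 0 for Trem2 and 0 for Mmp12 in HFD, and 0, 3.12 and 3.12% in LFD. After thinning to 2000 UMIs, the HFD shares in Cd9+ and Cd9- macrophages were 38.5 and 4.10% for Gpnmb, 73.5 and 43.1% for Trem2, 30.8 and 2.56% for Mmp12, and 58.1 and 20.5% for Fabp5. Thinned HFD T cells had a UMI in 1 of 10 cells for Gpnmb (interval 0.253 to 44.5%) and 2 of 10 for Fabp5 (2.52 to 55.6%). For Trem2 and Mmp12 it was 0 of 10. These 10 cells are too few to set the Cd9- shares of Gpnmb and Fabp5 apart from those of T cells.

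Summed over the 4 genes, the panel stood at 6588 CPM in HFD Cd9+ and 577 CPM in HFD Cd9- macrophages, a ratio of 11.4 (10.6 to 12.3). Without barcodes above 20000 UMIs the ratio was 5.08, with 15.0 for Gpnmb, 8.79 for Mmp12, 5.84 for Fabp5 and 3.46 for Trem2, so the deepest cells set much of its size. In LFD the panel stood at 129 CPM (6 UMIs) and 128 CPM (185 UMIs), a ratio of 1.004 (0.364 to 2.23).

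The HFD Cd9+ macrophages did not carry the panel uniformly. Of 117 cells, 3 had a UMI of none of the 4 genes, 22 of 1, 27 of 2, 32 of 3 and 33 of all 4. At least 2 panel genes were seen in 78.6% of them (70.1 to 85.7%) and in 29.4% of Cd9- cells (23.3 to 36.2%), and in 59.8 and 11.8% after thinning. In LFD, 0 of 4 Cd9+ cells and 7 of 226 Cd9- cells had at least 2. Conversely, of 72 HFD barcodes with a Cd9 UMI and at least 3 Gpnmb UMIs, 42 were Cd9+ macrophages by the rule and 21 had fewer than 10 C1q UMIs. The LFD library held 12 such barcodes, of which 0 were Cd9+ macrophages and 10 had fewer than 10 C1q UMIs. Gpnmb was thus at 0 in the gated LFD macrophages and not in the whole LFD library. Only 4 gated HFD macrophages without a Cd9 UMI had at least 3 Gpnmb UMIs. The Cd9+ macrophages held 85.8% of the Gpnmb UMIs of the HFD library, 86.6% of the Mmp12 UMIs, 76.1% of the Trem2 UMIs and 39.2% of the Fabp5 UMIs.

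**Figure D2:**
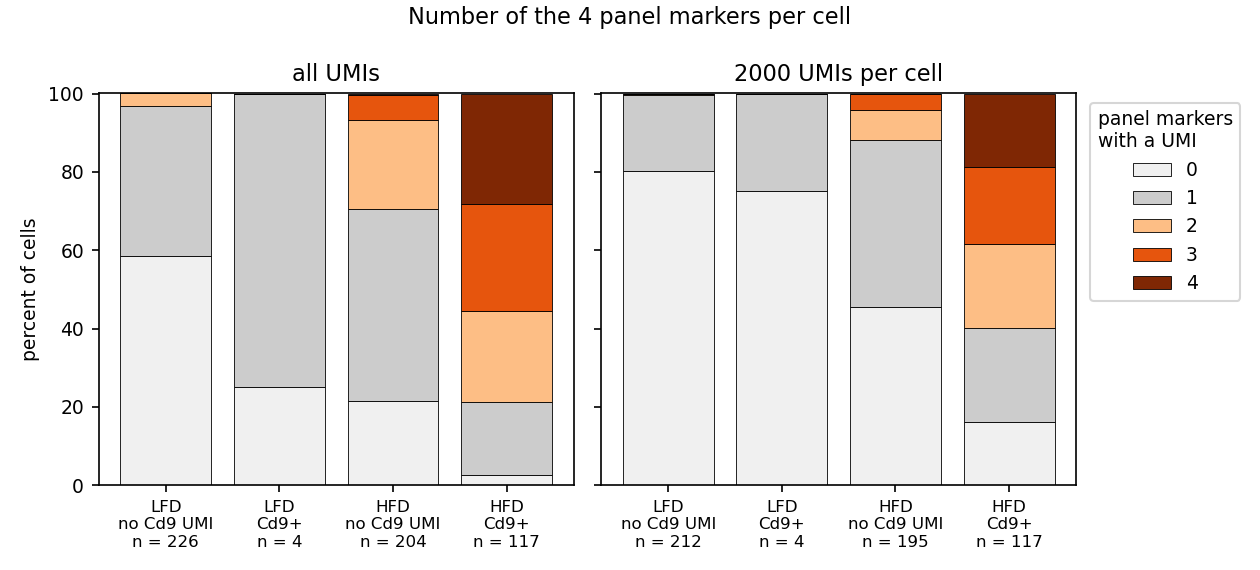
Percent of cells (vertical axis) with a UMI of 0, 1, 2, 3 or 4 of the panel markers Gpnmb, Trem2, Mmp12 and Fabp5, in gated macrophages with and without Cd9 of each library, with all UMIs (left) and with each cell thinned to 2000 UMIs (right). All 4 were seen in 33 of the 117 HFD Cd9+ cells and in 1 of the 204 HFD Cd9- cells.

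The promoters of Cd9 and of the panel genes with a RefSeq entry are shown because these genes were high in the same cells; Fabp5 had no entry. Each line gives the 250 bases before the RefSeq start (GRCm38.p6, transcript strand, 5′ to 3′), with matches to TGANTCA in capitals. This pattern, in which N is any base, is wider than the AP-1 consensus, in which the middle base is C or G. The Mmp12 match, TGAGTCA, has that consensus, and the Trem2 match, TGAATCA, does not.
Cd9 (chr6:125494761-125495010, minus strand): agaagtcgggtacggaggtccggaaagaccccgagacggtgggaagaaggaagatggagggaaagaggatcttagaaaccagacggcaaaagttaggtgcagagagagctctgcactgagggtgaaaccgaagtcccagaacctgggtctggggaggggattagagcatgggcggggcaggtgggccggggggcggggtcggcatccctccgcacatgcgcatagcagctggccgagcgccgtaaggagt
Gpnmb (chr6:49036268-49036517, plus strand): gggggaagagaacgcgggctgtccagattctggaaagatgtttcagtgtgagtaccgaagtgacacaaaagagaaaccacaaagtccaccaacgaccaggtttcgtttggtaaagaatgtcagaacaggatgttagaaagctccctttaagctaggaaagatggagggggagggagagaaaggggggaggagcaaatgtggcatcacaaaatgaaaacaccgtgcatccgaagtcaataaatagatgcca
Trem2 (chr17:48346151-48346400, plus strand): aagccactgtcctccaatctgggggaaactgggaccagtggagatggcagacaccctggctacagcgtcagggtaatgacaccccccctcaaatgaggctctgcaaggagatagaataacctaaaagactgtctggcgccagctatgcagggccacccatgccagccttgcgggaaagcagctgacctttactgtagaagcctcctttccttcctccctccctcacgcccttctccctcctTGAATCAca
Mmp12 (chr9:7347124-7347373, plus strand, the downstream of 2 entries): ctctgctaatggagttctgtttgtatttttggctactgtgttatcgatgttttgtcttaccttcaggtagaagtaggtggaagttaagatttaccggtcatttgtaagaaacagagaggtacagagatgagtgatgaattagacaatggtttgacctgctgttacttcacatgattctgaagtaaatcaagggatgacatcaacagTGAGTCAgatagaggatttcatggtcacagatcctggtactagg
The match began 9 bases before the start in Trem2 and 44 bases before it in Mmp12, and none lay in the Cd9 and Gpnmb windows or in the upstream Mmp12 entry (chr9:7344147-7344396). Of all 32851 promoters, 6.75% held TGANTCA in the same window. In the lipid-associated list described next, 15 of 18 genes had an entry, and Emp1, Itgax and Slc37a2 held a match. Of the other letters searched on both strands, CACGTG was in 0 of the 3 panel promoters (6.02% of all) and AGGAAGT in 1, the upstream Mmp12 entry (7.69% of all). These are matches of letters only.

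Of the 18 further lipid-associated macrophage genes on the list, all had at least 50 UMIs over both HFD classes, 14 were higher in Cd9+ macrophages and 0 lower, with a median log2 ratio of 1.79. Lgals3, galectin-3, the antigen Mac-2 that marks crown-like structures, was the most abundant of those higher, at 9325 against 1286 CPM (ratio 7.25, 6.90 to 7.63). The LFD levels of Lgals3 were 1698 CPM in the 4 Cd9+ cells and 496 CPM in Cd9- cells. Lpl, lipoprotein lipase, which releases fatty acids from lipoproteins, stood at 2973 against 630 CPM (ratio 4.72, 4.38 to 5.08) and was seen in 111 of 117 cells. Itgax, which encodes CD11c, the integrin used to sort inflammatory fat macrophages, stood at 172 against 7.47 CPM (ratio 23.0, 12.3 to 48.5), with a UMI in 33.3% of Cd9+ cells. In the window Itgax was under the minimum, with 17 UMIs against 5 (ratio 8.64, 3.06 to 30.0), and without 1 cell that held 11 of the 17 the ratio was 3.11 (0.791 to 12.9). Anxa1, a phospholipid-binding annexin, stood at 1456 against 227 CPM. Apoe, the apolipoprotein of cholesterol efflux, went the other way in the summed values, at 9172 against 13681 CPM, and was 1.26 times as high in Cd9+ cells in the window.

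At matched depth fewer of these genes passed 2-fold. In the window, where 2.97% of 3571 genes were higher and 5.18% lower, 15 of the 18 genes had at least 50 UMIs, 6 were higher and 0 lower, and the median log2 ratio was 0.63 beside -0.02 for all genes. The 6 were Lpl (ratio 4.43), Lgals3 (3.46), Anxa1 (3.21), Fabp4, the adipocyte-type fatty acid-binding protein (2.77), Slc37a2, a sugar-phosphate transporter (2.38), and Lipa, the acid lipase of the lysosome (2.02, or 1.89 without the Cd9+ cell with most of its UMIs). Plin2, which coats lipid droplets, had a ratio of 2.41 in all cells and 1.58 in the window. Ctsl, cathepsin L, had 4.45 and 1.22, and Ctsd, cathepsin D, had 2.80 and 1.45.

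Spp1, which encodes the secreted matrix protein osteopontin, was sparse. It had 116 UMIs in HFD Cd9+ macrophages (73.0 CPM, 60.3 to 87.6) and 6 UMIs in HFD Cd9- macrophages (4.48 CPM). It was seen in 29 of 117 Cd9+ cells, and 1 cell held 36 UMIs, 31.0% of the total. In the window it had 8 UMIs (20.8 CPM) against 5 UMIs (5.11 CPM), under the minimum of 50. LFD Cd9+ cells had 0 UMIs. The Cd9+ macrophages held 58.3% of the 199 Spp1 UMIs of the HFD library, and the whole LFD library had 7.

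**Figure D3:**
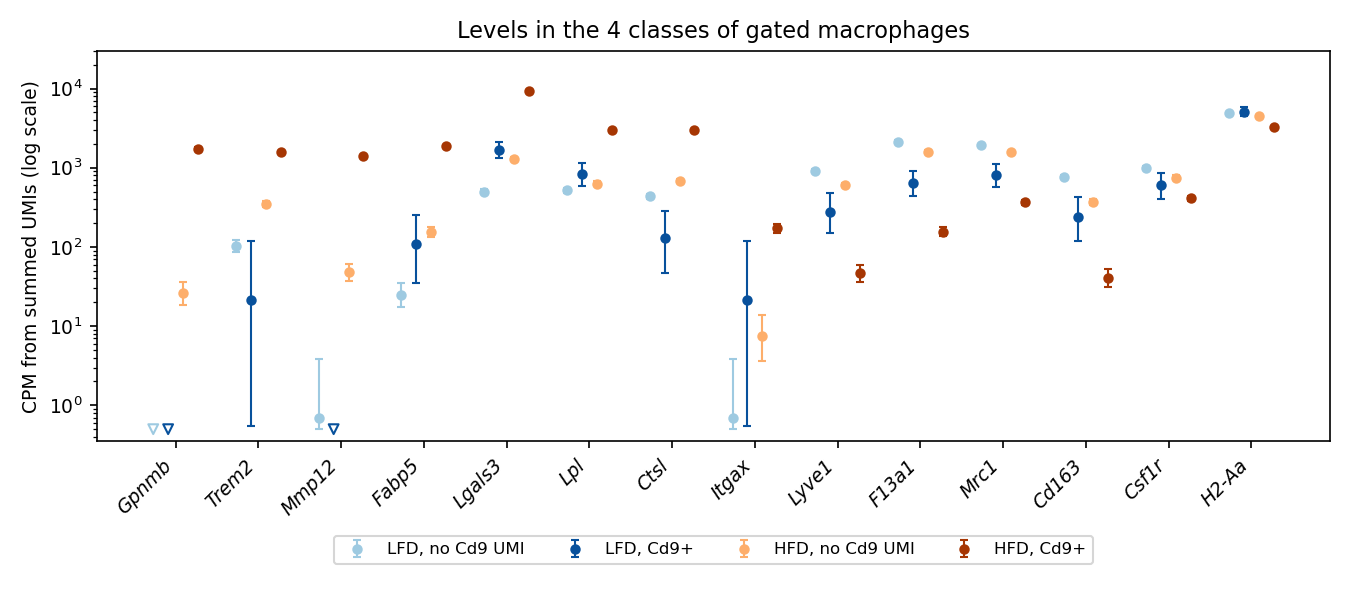
CPM from summed UMIs (vertical axis, log scale) of panel, lipid-associated, resident and other macrophage genes in gated macrophages with and without Cd9 of each library; bars are exact 95% Poisson intervals, cut at 0.5 CPM, and open triangles stand for 0 UMIs. Gpnmb reaches 1747 CPM in HFD Cd9+ cells and has 0 UMIs in both LFD classes, and Lyve1 is lowest in HFD Cd9+ cells, at 46.6 CPM.

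Among 21 genes of lipid uptake, storage and efflux, 18 had at least 50 UMIs, and 11 were higher and 0 lower in HFD Cd9+ macrophages (median log2 ratio 1.33). Abcg1, a sterol exporter, stood at 114 against 35.9 CPM (ratio 3.17, 2.30 to 4.46), and Soat1, which esterifies cholesterol for storage, at 168 against 55.3 CPM (ratio 3.04, 2.34 to 3.99). Nr1h3, the oxysterol receptor LXR-alpha that controls Abcg1, stood at 49.1 against 11.2 CPM and had 10 UMIs against 12 in the window (ratio 2.12, or 1.30 without 1 cell with 4). Abca1, the other exporter on the list, stood at 123 against 209 CPM, a ratio of 0.588 (0.488 to 0.709), and 0.859 in the window. In the window, 5 of 13 genes were higher, Abcg1 (2.80) and Soat1 (2.42) among them, and 1 lower, the scavenger receptor gene Msr1 (28.6 against 61.3 CPM).

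Resident macrophage genes were the clearest group in the other direction. Of 19, 0 were higher and 18 lower in HFD Cd9+ macrophages, with a median log2 ratio of -2.94, and Igf1 was the gene that stayed within 2-fold (325 against 615 CPM). Lyve1, the hyaluronan receptor, stood at 46.6 against 606 CPM (ratio 0.0768, 0.0597 to 0.0976) and was seen in 6 of 117 Cd9+ and 104 of 204 Cd9- cells. F13a1, the coagulation factor XIII subunit of resident macrophages, stood at 156 against 1599 CPM, Cd163 at 40.9 against 372 CPM and Mrc1 at 365 against 1582 CPM. Timd4 was seen in 2 of 117 Cd9+ and 32 of 204 Cd9- cells. In the window, 15 of 18 genes were lower and 0 higher, with a median of -1.60. Lyve1 was there at 138 against 631 CPM, or at 77.1 CPM without 1 Cd9+ cell that held 24 of its 53 UMIs, F13a1 at 468 against 1681 CPM and Mrc1 at 717 against 1640 CPM. Pf4, platelet factor 4, at 2088 against 2488 CPM, and Sepp1, the selenoprotein P gene, at 2784 against 5519 CPM, stayed within 2-fold in the window, although Sepp1 had a ratio of 0.504, and 0.468 without its highest cell. Among the 26 HFD Cd9+ cells within the limits of the study's methods (at most 2500 genes and under 5% mitochondrial UMIs), the median was -1.14, with ratios of 0.305 for Lyve1, 0.607 for F13a1 and 0.670 for Mrc1, and of 1.19 for both Pf4 and Ccl8.

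The panel and the resident genes can be read together per cell. Of the 117 HFD Cd9+ cells, 95 (81.2%) had a panel sum above and a resident sum below the median of HFD Cd9- cells (330 and 19726 CPM), as did 54 of 204 Cd9- cells (26.5%) and 3 of 226 LFD Cd9- cells (1.33%). The resident sum per HFD Cd9+ cell had a median of 4750 CPM and a range of 130 to 35340 CPM, which overlapped the range of 0 to 65463 CPM in Cd9- cells. In LFD Cd9- cells the median was 27260 CPM.

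Lysosomal genes were mixed. Of 31 on the list, 29 had at least 50 UMIs, 10 were higher and 2 lower in HFD Cd9+ macrophages, with a median log2 ratio of 0.24. Psap, which encodes the saposin precursor needed to degrade sphingolipids, stood at 4730 against 1851 CPM (ratio 2.56, 2.44 to 2.68), and Ctsc, the cathepsin that activates granule proteases, at 315 against 1091 CPM. Their ratios in the window were 1.43 and 0.594. Lamp1, the main lysosomal membrane protein, stood at 1142 against 1131 CPM. In the window 2 of 28 were higher and 0 lower, both of them subunits of the proton pump that acidifies the lysosome: Atp6v0d2 at 234 against 33.7 CPM (ratio 6.93) and Atp6v1c1 at 114 against 47.0 CPM (ratio 2.43).

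Atp6v0d2 also belongs to the genes of cell fusion and osteoclasts. On that list 4 of the 7 genes with at least 50 UMIs were higher and 1 lower in HFD Cd9+ macrophages. Acp5, the tartrate-resistant acid phosphatase, stood at 177 against 29.9 CPM (ratio 5.92, 4.24 to 8.46). Ctsk, cathepsin K, the collagen-degrading protease of osteoclasts, had 561 UMIs against 5 (353 and 3.74 CPM, ratio 94.5, 40.2 to 292). It was seen in 39 of 117 Cd9+ cells and 5 of 204 Cd9- cells. The fusion protein genes Dcstamp and Ocstamp had 42 and 5 UMIs in Cd9+ cells and 2 and 0 UMIs in Cd9- cells, below the minimum of 50. In the window 1 of 3 genes of the list was higher, Atp6v0d2, and 0 were lower, with a median log2 ratio of 0.17. That median covers 3 genes and the median of 1.34 in all cells covers 7. Under the minimum in the window, Ctsk had 43 UMIs against 2 (ratio 54.7, 14.2 to 466) and Acp5 22 against 23 (ratio 2.43, 1.29 to 4.56).

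Among genes of the matrix and its proteases, 6 of 12 were higher and 2 lower in HFD Cd9+ macrophages, beside 5.65 and 6.65% of all genes. Mmp19, a metalloproteinase, stood at 110 against 31.4 CPM, Adam8, a membrane-bound sheddase, at 259 against 35.1 CPM (ratio 7.38, 5.45 to 10.2), and Plaur, the urokinase receptor, at 116 against 50.1 CPM. These were the 3 genes of the list that were also higher in the window. Mmp9, gelatinase B, had 3 UMIs in Cd9+ and 54 in Cd9- cells (ratio 0.0468, 0.00936 to 0.144), and Tgfbi, a collagen-binding secreted protein, stood at 164 against 543 CPM. Mmp9 in LFD Cd9- macrophages was at 235 CPM.

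For phagocytosis, 5 of 18 genes were higher and 5 lower in HFD Cd9+ macrophages, beside 5.65 and 6.65% of all genes. In the window 2 of 14 were higher and 5 of 14 lower, beside 2.97 and 5.18%. The integrin subunit gene Itgb5 was higher in both (ratio 2.84, 2.08 to 3.92, and 2.54 in the window). Axl, a receptor for apoptotic cells, stood at 106 against 61.3 CPM and at 138 against 51.1 CPM in the window. Mfge8, the bridge that links apoptotic cells to integrins, stood at 212 against 16.4 CPM in all cells, where 1 cell held 23.4% of its UMIs, and had 10 UMIs against 14 in the window, 6 of the 10 in 1 cell. The inhibitory Fc receptor gene Fcgr2b stood at 85.6 against 496 CPM and at 179 against 507 CPM in the window, lower in both. Of 10 further tetraspanins, 1 was higher (Cd151, 55.4 against 26.9 CPM, a ratio of 2.06, or 1.95 without its highest cell) and 1 lower (Cd81, 230 against 609 CPM). With 10 genes, 1 each way is near the 5.65 and 6.65% of all genes, and in the window 0 of 8 passed 2-fold either way.

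**Figure D4:**
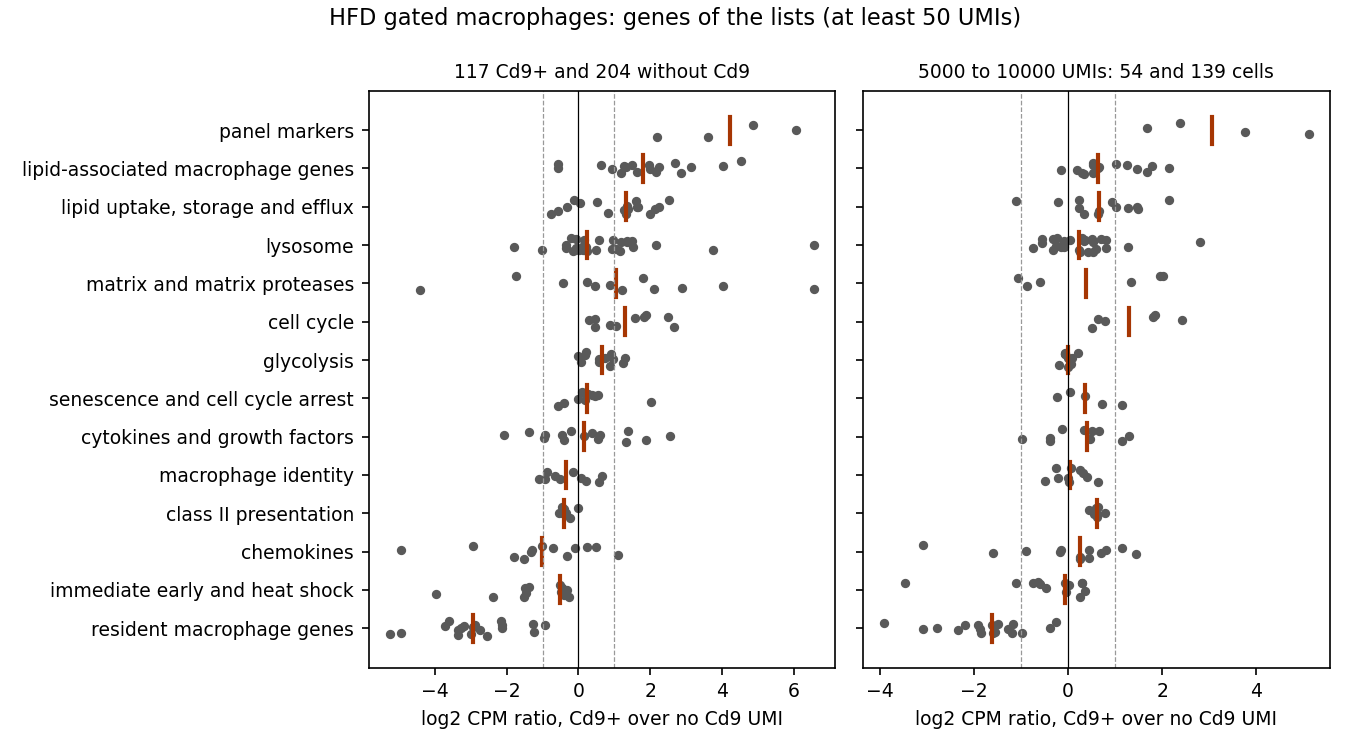
Log2 ratio of CPM between Cd9+ and Cd9- HFD macrophages (horizontal axis) for the genes of 14 lists, 1 point per gene with at least 50 UMIs, for all cells (left) and for cells of 5000 to 10000 UMIs (right); red bars are list medians and dashed lines mark 2-fold. The resident genes lie lowest in both panels (medians -2.94 and -1.60), and class II presentation lies at -0.40 on the left and 0.61 on the right.

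Several groups had another direction once depth was matched. The 7 class II presentation genes had a median log2 ratio of -0.40 in all HFD cells and 0.61 in the window. H2-Aa, a class II chain gene, stood at 3288 against 4478 CPM in all cells and at 6560 against 4305 CPM in the window, and Cd74, the invariant chain gene, at 6692 against 8543 CPM and at 12386 against 8431 CPM. None of the 7 passed 2-fold in either set. Without the barcodes above 20000 UMIs the median was 0.19. The chemokine list had a median of -1.03 with 1 of 13 genes higher and 7 lower, and 0.26 in the window with 2 higher and 2 lower. Ccl4, Ccl7 and Cxcl10, ligands for monocytes and T cells, were lower in all cells (ratios 0.398, 0.347 and 0.412) and had ratios of 1.20, 1.18 and 1.36 in the window. Each of these 3 window ratios rested on 1 Cd9+ cell: without the cell with most of its UMIs, the ratio was 0.894 for Ccl4, 0.996 for Ccl7 and 0.882 for Cxcl10 (0.271 in all cells). With each chemokine gene taken without its highest cell, the window median was -0.16, with 1 higher and 2 lower, so its other direction in the window was not seen without single cells. Ccl8, a monocyte chemokine made by resident macrophages, was lower in both, at 104 against 3222 CPM and 403 against 3389 CPM, but not within the limits of the methods, as given above. Cxcl1, a neutrophil chemokine, was higher in both (ratios 2.13 and 2.20), but within 2-fold without its highest Cd9+ cell (1.98 and 1.76).

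Cytokine and growth factor genes showed 4 of 15 higher (Il1rn, Pdgfa, Pdgfb and Vegfa) and 2 lower (Pdgfc and Hbegf) in all cells, beside 5.65 and 6.65% of all genes. In the window 2 of 10 were higher (Tnf and Gdf15) and 0 lower, beside 2.97 and 5.18%. With each gene taken without its highest cell, 1 was higher and 1 lower there. Tnf stood at 296 against 203 CPM in all cells and at 462 against 189 CPM in the window, where it was higher, and was seen in 78.6% of Cd9+ and 48.0% of Cd9- cells. Il1b stood at 228 against 300 CPM in all cells and at 413 against 298 CPM in the window. The 12 glycolysis genes with at least 50 UMIs had a median log2 ratio of 0.66 in all cells, with 2 higher, and -0.01 in the window, with 0 of 9 higher. The 11 iron and haem genes had a median of -0.52 in all cells and 0.17 for 10 of them in the window, and the 13 immediate early and heat shock genes -0.50 and -0.06, with Hspa1a and Hspa1b lower in both sets.

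Of the cell cycle genes, 6 of 10 were higher and 0 lower in all HFD Cd9+ macrophages (median log2 ratio 1.30). In the window 3 of 6 were higher (median 1.30, or 0.68 with 2 of 6 higher when each gene was taken without its highest cell). The equal medians cover 10 and 6 genes, so they are not the same measure. Mki67, the proliferation marker Ki-67, stood at 192 against 64.3 CPM (ratio 2.99, 2.34 to 3.84) and at 117 against 32.7 CPM in the window, or 77.0 CPM without 1 cell that held 16 of its 45 UMIs. Top2a, the replication topoisomerase, stood at 106 against 51.6 CPM (ratio 2.05, or 1.61 without its highest cell; 3.50 and 1.73 in the window), and Stmn1, a microtubule regulator of mitosis, at 334 against 94.2 CPM. At least 2 UMIs of Mki67 and Top2a were seen in 26 of 117 Cd9+ cells (22.2%, 15.1 to 30.8%) and 10 of 204 Cd9- cells (4.90%, 2.38 to 8.83%), and in 12 of 117 (10.3%) and 3 of 195 (1.54%) after thinning. Among genes of senescence and cell cycle arrest, Cdkn1a, which encodes p21, stood at 398 against 354 CPM (ratio 1.13, 0.999 to 1.27), and after thinning it was seen in 42.7 and 43.6% of cells. Cdkn2a, which encodes p16, had 14 UMIs in 5 Cd9+ cells, 8 of them in 1 cell, and 1 UMI in Cd9- cells. In the window 1 of the 5 genes of that list with at least 50 UMIs was higher, the stress cytokine gene Gdf15 (366 against 166 CPM), and 1 cell held 60 of its 141 UMIs, without which it stood at 214 CPM (ratio 1.28).

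Within the HFD Cd9+ macrophages the panel and resident genes were ordered by the number of Cd9 UMIs, and class II and cell cycle genes were not. Cells with 1 Cd9 UMI (31 cells, median 6363 UMIs), 2 to 4 (31 cells, 7575 UMIs) and 5 or more (55 cells, 13738 UMIs) differed in depth, so the window is given here. In it the 3 sets held 18, 19 and 17 cells with medians of 6621, 6964 and 7554 UMIs. Gpnmb stood at 25.0, 142 and 520 CPM in that order, beside 17.4 CPM in Cd9- cells. Trem2 stood at 433, 1058 and 1722 CPM beside 339 CPM, and Fabp5 at 233, 633 and 1171 CPM beside 133 CPM. Mmp12 had 0 UMIs in cells with 1 Cd9 UMI, and 74.5 and 1064 CPM in the other sets, beside 11.2 CPM in Cd9- cells. Without the cell with 87 Mmp12 UMIs, the last set (16 cells) stood at 422 CPM for Mmp12, 259.7 CPM for Gpnmb, 1761 CPM for Trem2 and 1217 CPM for Fabp5, still the highest of the 3 sets for each.

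The resident genes summed to 12628, 8796 and 5749 CPM in the same order, beside 23132 CPM in Cd9- cells. Lyve1 stood at 233 and 186 CPM and had 0 UMIs in cells with 5 or more Cd9 UMIs, and F13a1 stood at 899, 484 and 53.6 CPM. In the set with 2 to 4 Cd9 UMIs, 1 cell held 24 of the 25 Lyve1 UMIs and 28 of the 65 F13a1 UMIs, so its Lyve1 level rests on that cell. Between cells with 1 Cd9 UMI and Cd9- cells the intervals overlapped for Gpnmb (5.15 to 73.0 and 10.1 to 27.8 CPM) and Trem2 (323 to 568 and 304 to 378 CPM) and only just for Fabp5 (155 to 337 and 111 to 158 CPM), whose level was 233 against 133 CPM, while their resident sum lay between that of Cd9- cells and that of the other Cd9+ cells. Class II genes summed to 28135, 35615 and 30474 CPM beside 21011 CPM and followed no order, nor did cell cycle genes, at 2139, 3068 and 1799 CPM beside 1264 CPM. Mki67 stood at 83.2, 194 and 68.9 CPM beside 32.7 CPM.

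**Figure D5:**
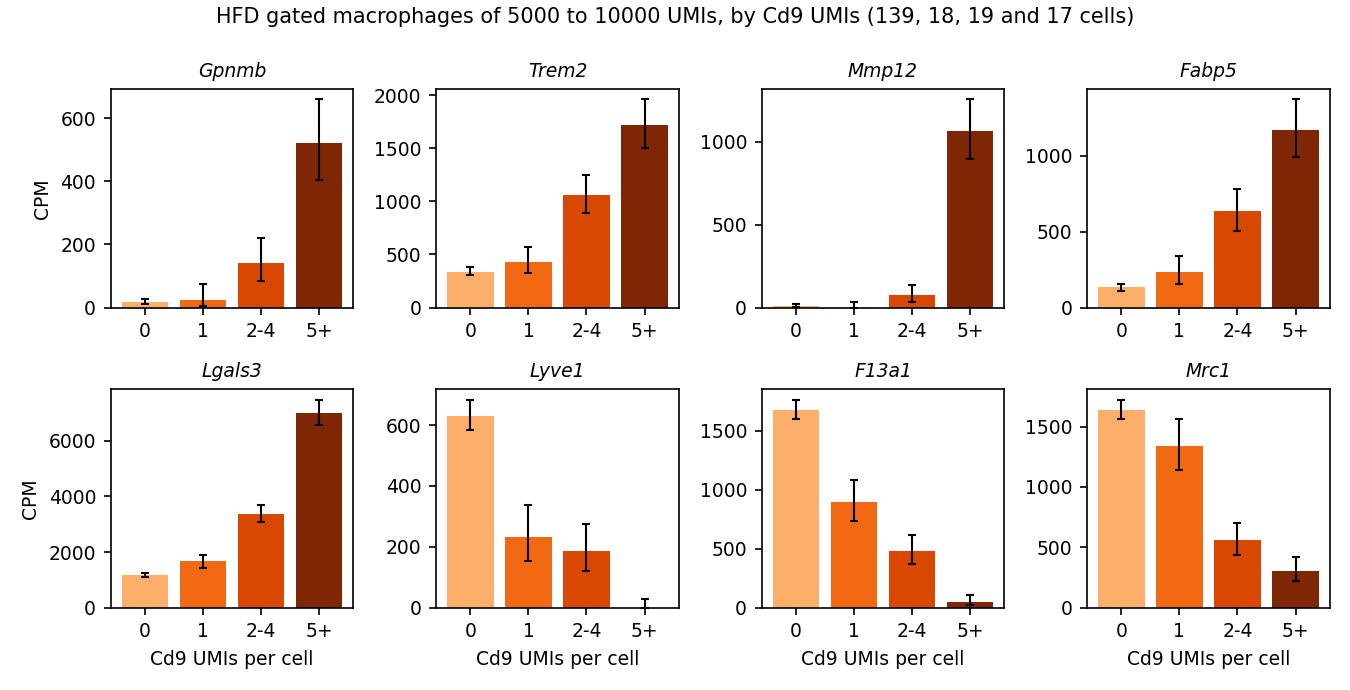
CPM from summed UMIs (vertical axes) of 8 genes in HFD gated macrophages of 5000 to 10000 UMIs, by the number of Cd9 UMIs per cell (0, 1, 2 to 4, 5 or more; 139, 18, 19 and 17 cells); bars are levels and lines exact 95% Poisson intervals. Gpnmb, Trem2, Mmp12, Fabp5 and Lgals3 are highest in cells with 5 or more Cd9 UMIs, where 1 cell holds 87 Mmp12 and 36 Gpnmb UMIs, and Lyve1, F13a1 and Mrc1 are highest in cells without Cd9.

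Of the genes with the 10 highest ratios in HFD, Ctsk (94.5) and Gpnmb (66.8), described above, had the largest finite ratios. A gene with 0 UMIs in one class has no finite ratio and was placed first, although only its bound is known. Vsig8, an immunoglobulin-domain membrane protein gene, had 85 UMIs in 23 Cd9+ cells and 0 in Cd9- cells, at least 23.9-fold higher against a floor of 3 UMIs over the class, the one-sided 95% limit of a count of 0. Chst11, a chondroitin sulfotransferase gene, had 57 UMIs in 22 cells and 0, at least 16.0-fold higher. At that bound, 9 of the 10 highest were still among the 10. F7, coagulation factor VII, had 217 UMIs in 34 cells against 4 (ratio 45.7, 17.6 to 169). Zranb3, a replication fork helicase gene, had 138 UMIs against 2 (ratio 58.1, 15.8 to 484), Igf2bp2, an mRNA-binding protein gene, 50 against 1 (42.1, 7.22 to 1696), and Pcdh7, a protocadherin gene, 87 against 3 (24.4, 8.08 to 121). Slpi, a protease inhibitor gene, had 129 UMIs against 2, and 95.3% of them came from 1 cell. The other 3 of the 10 were Ctsk, Gpnmb and Mmp12. In the window, Vsig8 had 1 UMI and Slpi 0 in Cd9+ cells, and Chst11 and F7 had 17 UMIs and 23 UMIs there against 0 in Cd9- cells. The others were sparse there: Zranb3 had 9 UMIs against 2 (ratio 11.4, or 6.48 without 1 cell), Igf2bp2 7 against 1 (17.8, or 10.4) and Pcdh7 6 against 3 (5.08, or 2.60 with an interval of 0.348 to 19.4).

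The lowest ratio belonged to Rnase2a, an eosinophil-type ribonuclease gene, with 12 UMIs against 493 (ratio 0.0205, 0.0105 to 0.0361). Colec12, a scavenger collectin gene, had 2 UMIs against 74 (0.0228, 0.00271 to 0.0852). The C-type lectin genes Cd209a and Cd209d stood at 3.78 against 152 CPM and 23.9 against 907 CPM. Ccl8 and Mmp9 followed, as given above. Enpep, an aminopeptidase gene, stood at 3.78 against 67.3 CPM, Hspa1b, an HSP70 gene, at 3.15 against 49.3 CPM, Ly6e, a lipid-anchored surface protein gene, at 35.9 against 528 CPM, and Ggt5, a glutathione-cleaving transferase gene, at 2.52 against 36.6 CPM. Of these 10, 8 had at least 50 UMIs in the window, and all 8 were lower there too, with ratios of 0.0612 for Rnase2a and 0.169 for Ly6e (0.0925 without 1 Cd9+ cell that held 18 of its 39 UMIs). Without the Cd9+ cell with most of their UMIs, Rnase2a and Cd209d had ratios of 0.0120 and 0.0160 in all cells. In the window, Mmp9 and Ggt5 had 1 UMI each against 41 and 39.

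The 4 LFD Cd9+ macrophages differed among themselves in the genes seen. The deepest had 26801 UMIs, 57.6% of the UMIs of the class, and carried proliferation genes, with 38 UMIs of Mki67, 35 of Top2a and 42 of Stmn1, and 58 of Areg, the growth factor amphiregulin. The second had 8095 UMIs and the resident genes Lyve1 (11 UMIs) and Mrc1 (15 UMIs). The third had 6313 UMIs, with 18 of F13a1 and 191 of Retnla, a gene of alternatively activated macrophages. The last had 5320 UMIs, with 48 of Lgals3 and 0 of Lyve1, F13a1 and Cd163. In all 4, Gpnmb, Mmp12 and Spp1 were at 0, Trem2 had 1 UMI in 1 cell, and Fabp5 had 5 UMIs in 2 cells.

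Set against LFD Cd9- macrophages, 10.3% of 3976 genes were higher and 23.8% lower in these 4 cells, and 1 cell held most of the UMIs. Of these genes, 359 had 0 UMIs in one class, and with each 0 set at the floor of 3 UMIs the share lower was 15.0%. Of 19 resident genes, 17 were lower (16 with 0 at the floor, Vsig4 being within 2-fold) and 0 higher. The resident sums of the 4 cells, from the deepest to the shallowest, were 1007, 25695, 24711 and 2444 CPM, beside the LFD Cd9- median of 27260 CPM, so that 2 of the cells lay close to it. All 6 cell cycle genes were higher. Among the 10 highest ratios, Areg, Top2a, Ifit1, Rsad2, Hist1h1b, Mki67, Stmn1, Smc2, Cxcl10 and Gdf15, the deepest cell supplied all 58 UMIs of Areg, all 32 of the interferon-induced gene Ifit1 and 107 of the 111 of Cxcl10. The 10 lowest, Ccl8, Ccl12, Cxcl9, Ms4a6c, Sgpl1, Cxcl12, Bach1, Atp6ap1, Gapvd1 and Tmem37, all had 0 UMIs. At the floor of 3 UMIs they were at least 2.12 to 14.7-fold lower, and only Ccl8 was still among the 10 lowest.

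Between the Cd9+ cells of the diets, 23.8% of 4071 genes were higher and 12% lower in HFD. Of these genes, 420 had 0 UMIs in one class, and with each 0 set at the floor of 3 UMIs the shares were 13.9 and 12.7%. All 4 panel genes were higher in HFD, and 17 of 18 lipid-associated genes at that floor, where Spp1, with 0 UMIs in LFD, was at least 1.13-fold higher and so within 2-fold. Gpnmb was at least 27.1-fold and Mmp12 at least 21.6-fold higher against a floor of 3 UMIs. Trem2 was 73.6 times as high (13.2 to 2907, 1 UMI in LFD) and Fabp5 17.4 times. Further genes with 0 UMIs in LFD and the most UMIs in HFD were Rgs1, Hilpda, Mfge8, Tnfaip2, Ahnak2, Myo1e, Syngr1 and Acp5, at least 2.74 to 8.38-fold higher. Of the 10 genes placed first for their 0 in LFD, only Gpnmb and Mmp12 were among the 10 highest at the floor. The 10 lowest were Ifit1, Areg, Cxcl10, H2-Q7, Lyz1, Ifi203, Ccl24, Isg15, Parp14 and Cd209g. Cell cycle genes were lower in HFD, 7 of 9, and the deepest LFD cell held 38 of the 38 Mki67 UMIs of its class.

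With all 230 gated LFD macrophages as the reference, a comparison added after the data had been seen, 9.23% of 6197 genes were higher and 12.2% lower in HFD Cd9+ macrophages. Gpnmb was at least 865-fold higher against the floor of 3 UMIs, since it had 0 UMIs in the LFD class. Mmp12 had 2214 UMIs against 1, Fabp5 was 67.7 times and Trem2 15.8 times as high. Lgals3 was 17.5 times and Lpl 5.59 times as high. In the window, where gated LFD macrophages were 156 cells with a median of 6673 UMIs, Lgals3 stood at 4072 CPM in HFD Cd9+ and 467 CPM in LFD cells (ratio 8.71, 7.87 to 9.65), and Lpl at 2257 and 333 CPM (ratio 6.77, 5.98 to 7.68).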

How the data were processed

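The authors deposited, for each library, a table of UMI counts that had not been normalized, made with Cell Ranger from 10x Chromium 3' v3 libraries on mm10 (submitters' processing notes). The header of the tables names version 3.0.2. All 2174 barcodes with at least 200 genes were kept (7356278 UMIs in the LFD and 8412325 in the HFD table over 1113 and 1144 barcodes, medians of 6197 and 6486 UMIs), since the limits of the methods, at most 2500 genes and under 5% mitochondrial UMIs, leave 26 of 117 HFD and 1 of 4 LFD Cd9+ macrophages. Members and gene lists were chosen with earlier results of these data known. Counts were summed per class and library, with exact Poisson (CPM), Clopper-Pearson (shares) and conditional binomial (ratios) intervals; list medians add 0.5 UMIs per gene. Genes named were the 10 highest and 10 lowest ratios of each comparison among genes with at least 50 UMIs (mitochondrial, ribosomal protein, haemoglobin and Y-linked genes and Xist left out), Cd9, the panel and genes of the fixed lists. Single cells and features singled out beyond that were chosen after their values were seen. Of 302 listed genes, Clec7a, Ighm, Trbc1 and Trbc2 had no row, and 4 were matched by identifier. Thinning drew 2000 UMIs per cell. Doublets were kept and called with Scrublet (expected rate 1%) in scanpy 1.11.5 for an alternative, which marked 21 of 1057 LFD and 26 of 1117 HFD barcodes. Scripts ran in Python 3.11.15 with numpy 2.4.6, pandas 2.3.3 and scipy 1.17.1 and were tested on simulated data. Gene positions are from GENCODE M21 and promoters from RefSeq (GRCm38.p6). Values of some listed genes are not reported here.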

Additional observations from a re-analysis of the deposited data

How the results depend on the processing

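No paired analysis was possible because each diet is 1 library, and for the same reason no replicate could be left out. With the limits of the study's methods, which leave 26 HFD and 1 LFD Cd9+ macrophages, 31 genes were higher and 46 lower in HFD Cd9+ cells and the panel ratio was 5.02; 74 were higher and 175 lower in LFD, and 152 higher and 37 lower between the Cd9+ cells of the diets. There the chemokine median was 0.25 and the matrix median -0.94, and the ratios were 1.71 for Ccl7, 1.19 for Ccl8, 1.22 for Cxcl10 and 1.19 for Pf4. With at least 2 Cd9 UMIs, cells with 1 left out of both classes, the shares were 0.441% in LFD (1 of 227) and 29.7% in HFD (86 of 290), or 0.435 and 26.8% of all gated macrophages, the panel ratio was 13.05 in HFD and 0 in LFD (1 cell), 671 genes were higher and 2676 lower in LFD, and 2333 were higher in HFD than in LFD Cd9+ cells. Thinned to 2000 UMIs per cell, the HFD share was 24.4%, 57 genes were higher and 114 lower in HFD, the panel ratio was 4.57, Cxcl10 had a ratio of 1.03, 178 and 547 genes were higher and lower in LFD, and 112 and 43 between the diets. With the mean of cells in place of summed UMIs, the panel ratio was 7.13. With at least 20 UMIs per gene, 593 and 670 genes were higher and lower in HFD, 940 and 2065 in LFD, and 2048 and 1098 between the diets. The number of genes with enough UMIs depends on the cells and the minimum of each setting. Counts of genes in this section are therefore not shares and cannot be compared across settings. With at least 2 Cd9 UMIs, the counts that involve LFD Cd9+ cells rest on 1 cell.

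The next settings were chosen after seeing the data. At 5000 to 10000 UMIs the HFD share was 28.0%, 106 genes were higher and 185 lower in HFD, the panel ratio was 4.79, the chemokine median was 0.26, the ratios were 1.011 for Aif1, 1.20 for Ccl4, 1.18 for Ccl7 and 1.36 for Cxcl10 (0.964, 0.894, 0.996 and 0.882 without the Cd9+ cell with most UMIs of each, and -0.16 for the chemokine median), and 264 and 77 genes were higher and lower between the diets. Without barcodes above 20000 UMIs, 138 genes were higher and 246 lower in HFD, the panel ratio was 5.08, and 206 were lower between the diets. Against all gated LFD macrophages, 572 were higher and 755 lower. The cause of these differences was not tested.

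Of 61 named genes past 2-fold in HFD, all 61 had the same direction when barcodes above 10% mitochondrial UMIs were left out, with at least 20 C1q UMIs, with the mean of cells (54 past 2-fold) and without barcodes above 20000 UMIs (50 past 2-fold). Fewer did with the limits of the methods (45 of 49, 29 past 2-fold), thinned (52 of 53, 40 past) and at 5000 to 10000 UMIs (52 of 56, 43 past). List medians took the other direction in 7 of 16, 3 of 17 and 5 of 17 lists in that order, in 2 of 17 without barcodes above 20000 UMIs and in 1 of 17 with the mean of cells. Leaving out doublet calls says nothing here, since 0 of the HFD Cd9+ and 0 of the HFD Cd9- cells were called. The settings that leave out 1 cell or set 0 at the floor were chosen after seeing the data. The 4 LFD cells held 46529 UMIs, 57.6% of them in 1 cell.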
